A study of Arabidopsis thaliana with 91 samples.

Results

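In Arabidopsis leaves, 8446 stretches of chromatin carried trimethylation of histone H3 at lysine 4 (H3K4me3) together with the histone variant H2A.Z. These H2A.Z-marked segments were chosen by measured values, namely the peaks of 4 ChIP-seq libraries of wild-type Col-0 plants. A segment was a run of at least 100 and under 1500 bp covered by peaks in both H3K4me3 lists of SET1, and it counted as H2A.Z-marked when it overlapped, by at least 1 bp, a run of at least 100 bp covered in both Col-0 H2A.Z lists (replicate 1 of SET4 and replicate 2 of SET5). Of 15154 H3K4me3 segments of at least 100 bp, 14566 were below 1500 bp and 588 were longer, and the 8446 marked segments were 58% of the 14566, a share fixed by the rule. For comparison, 3100 segments of the same length range overlapped no peak of either Col-0 H2A.Z list. The other 3020 lay in between, 2998 of them with a peak in 1 of the 2 H2A.Z lists. H2A.Z itself was more widespread, since 11283 of its 20393 shared runs of at least 100 bp overlapped no H3K4me3 segment.

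H3K4me3 marks the beginnings of transcribed genes and is written in Arabidopsis mainly by SDG2 and the ATX proteins. H2A.Z replaces the ordinary H2A histone in nucleosomes, is placed by the SWR1 complex, sits just inside gene starts and over the bodies of genes that respond to the environment, and is depleted where DNA is methylated. ROS1 is a DNA glycosylase that removes methylated cytosines, JMJ14 is an H3K4 demethylase, and acetylation of H3 at lysine 14 (H3K14ac) is a mark of active genes.

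The study fused the catalytic domain of SDG2 to targeting modules aimed at the FWA gene and sequenced chromatin from leaves of plants 4 to 5 weeks old, all of the Columbia-0 ecotype and grown in long days. In SDG2-ZF plants the domain was joined to the zinc finger ZF108 and driven by the UBQ10 promoter in wild type, and SDG2(H1866K)cd plants carried the same fusion with a point mutation in the catalytic domain. SDG2-ZF was also present in rdd, which lacks the demethylases ROS1, DML2 and DML3, and its reference was rdd without the transgene. SunTag-SDG2 was brought to FWA by guide RNAs in the rdr6 mutant, in which transgenes are silenced less, and was compared with rdr6. A line with the same system and no guide was also profiled. TRBIP1-ZF joined the zinc finger to TRBIP1, a small coiled-coil protein that co-purifies with JMJ14, in the unmethylated fwa epiallele and was compared with fwa. TRBIP1-dCAS9-MQ1v, which added a bacterial DNA methyltransferase variant, was compared with fwa x rdr6, and dCAS9-MQ1v without TRBIP1 was a further group. Myc-tagged ROS1 was profiled alone and together with SDG2-ZF (Myc-ROS1 x SDG2-ZF, called the cross), Myc-tagged JMJ14 alone and in a cross with TRBIP1-ZF, and untagged Col-0 served as the Myc background. The UBQ10 promoter is active in most tissues. Each library averages over all leaf cells, and fewer cells with a mark cannot be told apart from less of the mark per cell.

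Peak lists of 50 libraries were analysed, 29 for H3K4me3, 6 for H3K14ac, 7 for H2A.Z and 8 for Myc, of 91 samples in the series. The lists held between 808 peaks (Myc in untagged Col-0) and 30556 peaks (H2A.Z in SDG2-ZF rdd). The lists hold no read numbers, and those the study gives for its libraries were not used here, so a missing peak says only that none was called. Short for their assay, and named beside the results they touch, were the H3K14ac list of rdd (5635 peaks), the H3K4me3 list of rdd replicate 2 (12992 peaks) and the H3K4me3 list of SDG2(H1866K)cd replicate 3 (9647 peaks). Replicates carry numbers and set names in the labels. The study describes its replicates as biological and independent, but the sources do not say which replicates came from separate transgenic lines, so the p-values reflect how far these libraries varied among themselves. As a check of the tissue, 18 of 19 photosynthesis genes had an H3K4me3 segment over their first 500 bp, against 0 of 26 seed, floral organ and pollen genes and 2 of 7 root genes.

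The sequence around the H2A.Z summit is shown for members whose values the results below turn on, because base composition differed between H2A.Z-marked segments and the others. Each run holds 100 bases on the strand of the gene, 5′ to 3′, from the TAIR10.1 assembly, whose nuclear chromosomes have the same coordinates as the TAIR10 build of the files, and CG dinucleotides, the sites of CG methylation, are in capitals. The first 4 belong to the segments with the highest H2A.Z fold enrichment and lie in coding exons. AT5G07760 encodes a formin-type protein that acts on actin (chr5:2468366-2468465, plus strand, 4 CG). TSPO is a stress-induced membrane protein (chr2:19568849-19568948, plus strand, 14 CG). NRT2.5 is a high-affinity nitrate transporter (chr1:4416778-4416877, plus strand, 9 CG). AGP1 is an arabinogalactan protein of the cell surface (chr5:25722210-25722309, plus strand, 6 CG).
AT5G07760: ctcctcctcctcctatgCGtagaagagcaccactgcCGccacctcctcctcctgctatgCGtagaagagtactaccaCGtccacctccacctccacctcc
TSPO: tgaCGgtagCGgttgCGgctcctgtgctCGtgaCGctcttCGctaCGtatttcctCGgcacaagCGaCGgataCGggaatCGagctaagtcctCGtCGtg
NRT2.5: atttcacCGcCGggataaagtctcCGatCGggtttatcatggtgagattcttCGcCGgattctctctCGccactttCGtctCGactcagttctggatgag
AGP1: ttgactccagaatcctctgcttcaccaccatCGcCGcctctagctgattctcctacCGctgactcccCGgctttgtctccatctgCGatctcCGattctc

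A pair of members stands for those that also carried Myc-ROS1, again at the H2A.Z summit in coding exons. TMM is a receptor-like protein that patterns stomata (chr1:30129111-30129210, minus strand, 8 CG). AT1G56090 encodes a tetratricopeptide repeat protein (chr1:20979032-20979131, minus strand, 7 CG). For contrast, 3 windows are given at the H3K4me3 summit of segments without H2A.Z, in introns near the start of the gene. PSB29 is a chloroplast protein linked to photosystem II (chr2:8987977-8988076, plus strand, 0 CG). ATMIN7 acts in vesicle traffic during immunity (chr3:15244809-15244908, minus strand, 6 CG). AT3G44100 encodes a lipid-recognition domain protein (chr3:15867057-15867156, minus strand, 1 CG).
TMM: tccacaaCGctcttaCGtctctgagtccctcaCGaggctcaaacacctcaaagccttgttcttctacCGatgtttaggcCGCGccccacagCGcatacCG
AT1G56090: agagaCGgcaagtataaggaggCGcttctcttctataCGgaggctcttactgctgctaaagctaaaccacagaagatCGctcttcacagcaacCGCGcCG
PSB29: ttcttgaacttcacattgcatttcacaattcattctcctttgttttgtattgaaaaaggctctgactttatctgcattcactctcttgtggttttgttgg
ATMIN7: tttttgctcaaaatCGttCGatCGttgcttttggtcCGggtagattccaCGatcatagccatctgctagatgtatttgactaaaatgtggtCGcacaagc
AT3G44100: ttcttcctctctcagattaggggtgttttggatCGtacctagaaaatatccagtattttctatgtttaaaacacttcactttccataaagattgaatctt

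H2A.Z-marked segments and segments without H2A.Z had similar lengths and similar shares at gene starts. Their median length was 667 bp, against 659 bp without H2A.Z. The run of H2A.Z shared by both Col-0 lists covered a median of 63.7% of a marked segment, and 13.5% of marked segments were covered from end to end. At the upper length limit, AT3G50650 and BT1 were just inside with 1498 bp and AT4G02720 with 1496 bp, while AT3G10040 and SCR at 1502 bp and WAT1 at 1503 bp were just outside. At the lower limit, the segments of MEE47 (104 bp), AT3G56930 and AT5G05240 (115 bp each) were inside, and those of CYP710A2 (93 bp), AT1G75710 (89 bp) and AT1G74390 (81 bp) were outside. Just inside the upper limit, Col-0 H2A.Z folds were 2.36 and 2.32 over AT3G50650, 3.64 and 2.07 over BT1, and 1.85 and 2.48 over AT4G02720. Just outside, they were 2.87 and 3.56 over AT3G10040, 2.66 and 2.64 over SCR, and 2.93 and 3.05 over WAT1. The lower of both folds was thus higher outside in these few segments. Of the marked segments, 67.6% had their midpoint within 500 bp of a coding gene's start (5708 segments at 5704 genes) and 30.1% lay further inside a coding gene. The shares without H2A.Z were 70.4% and 25.5%. Pseudogenes, noncoding RNA genes and intergenic DNA each held under 1% of marked segments.

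Marked segments were richer in G and C and lay over protein-coding exons. Their median GC content was 42.1%, against 37.7% without H2A.Z, and their median CG density was 4.15 per 100 bases, against 2.84. Of the bases under marked segments, 57.3% were in coding exons, against 32.4%. Both differences had the same sign on 5 of 5 chromosomes, at 4.04 to 4.69 percentage points for GC and 24.1 to 26.2 points for coding bases. Coding exons are richer in GC than the rest of a gene, and part of the difference remained within each kind of base. Coding bases had a median GC of 47.0% in marked segments, against 44.4%, and the other bases had 36.2%, against 35.0%. These are descriptions across segments, which are not replicates, and no test was made of them.

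Across all 14566 segments, the share that was H2A.Z-marked climbed steadily with GC. Of 10 equal GC groups, the lowest had 15.7% marked and the highest 90.3%, while the share without H2A.Z went the other way, at 56.7% and 4.12%. Ordered by coding share, 35.4% of segments with under 20% coding bases were marked, against 82.0% of those with 80% or more. GC still separated the classes inside a coding bin. With 80% or more coding bases the median GC was 46.2% in marked segments and 43.6% without H2A.Z, and with under 20% it was 38.8%, against 35.9%.

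**Figure D1:**
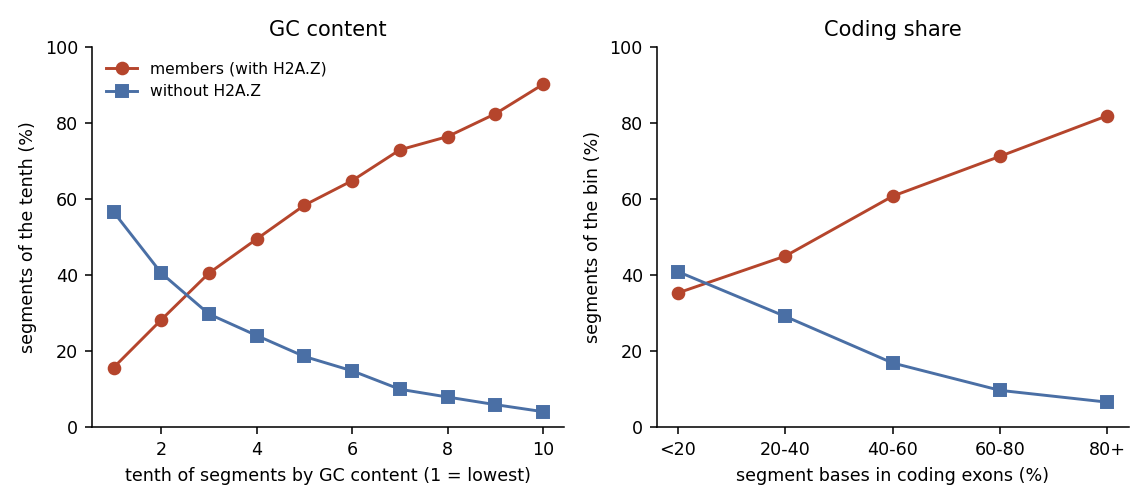
Share of segments that were H2A.Z-marked (red circles, called members in the key) or without H2A.Z (blue squares), in percent, by GC group (10 equal groups, 1 the lowest) on the left and by the percent of bases in coding exons on the right. The marked share is lowest, 15.7%, in GC group 1 and highest, 90.3%, in GC group 10.

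The genes behind the marked starts had a short way to go from transcription start to coding sequence. The median distance, measured along the gene, was 149 bp at marked starts, against 253 bp at starts without H2A.Z and 149 bp over all 27444 coding genes. An intron before the coding sequence was present in 9.89% of genes at marked starts, against 33.5% without H2A.Z, with 12.1% over all coding genes. In these values the marked starts were close to the genome as a whole, and the starts without H2A.Z stood apart. Genes of 1 exon made up 15.0% at marked starts, against 4.92%, with 20.4% over all coding genes. Median gene length was 2449 bp, against 2507.5 bp. At the H2A.Z summit of marked starts, 55.6% of 100-base windows lay wholly in a coding exon and 3.43% wholly in an intron. At the H3K4me3 summit of starts without H2A.Z the shares were 18.1% and 18.2%. The median window held 6 CG over all marked segments, against 3 without H2A.Z, and the gap was smaller within a kind of base. At starts, windows in coding exons held a median of 7 CG, against 6, and windows in introns 3, against 2. The printed runs lie in exons for marked segments and in introns for the others, so they differ in this as well.

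Short promoter motifs did not set the marked starts apart from those without H2A.Z. The 200 bases upstream of each start were searched on both strands for 6 motifs, and a match is only a match of letters. The site II element TGGGCC, found in promoters of growth and translation genes, was present at 21.5% of marked starts, 23.8% of starts without H2A.Z and 12.6% of all coding genes. The TATA box TATAAA was present at 38.0%, 38.5% and 41.0% in the same order. The telo box AAACCCTA gave 3.45%, 3.49% and 3.72%. The repeat GAGAGA gave 15.9%, 14.2% and 17.2%. The G-box CACGTG, bound by light-signalling factors, gave 6.64%, 6.85% and 5.64%, and the heat shock element core GAANNTTC gave 6.89%, 6.34% and 7.59%.

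H2A.Z was found again at marked segments in the 5 H2A.Z lists that did not choose them. Peaks covered 78.7%, 96.1% and 53.9% of marked segments in SDG2-ZF replicates 1, 2 and 3, 94.4% in SDG2-ZF rdd and 82.7% in rdd. Segments without H2A.Z in Col-0 had peaks in 4.06%, 16.4%, 1.52%, 22.5% and 12.4% in the same order. All 5 lists were higher at marked segments, by a mean of 69.8 ± 10.4 percentage points (SD, n = 5). The exact sign permutation test gave a two-sided p of 0.0625, the smallest that 5 lists allow, and 0.104 after Benjamini-Hochberg adjustment over 5 such comparisons between marked and unmarked segments. Both classes were defined by H2A.Z peaks, so their choice largely set this sign and the test adds little. The SDG2-ZF lists also share SET4 or SET5 with a list that chose the segments. The lowest share belonged to the shortest list, SDG2-ZF replicate 3 with 12217 peaks, and the highest shares to the longest, SDG2-ZF replicate 2 with 29052 and SDG2-ZF rdd with 30556. Once list lengths were made equal, the mean difference fell to 54.7 points (exact sign permutation p = 0.0625, n = 5). How far list length set the spread among the single lists was not tested.

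A large share of the marked segments had H2A.Z in every list, and these were the segments richest in coding sequence. Of the 8446, 4059 (48.1%) had a peak in all 7 H2A.Z lists, 2099 in 6, 1334 in 5, 676 in 4, 220 in 3 and 58 in the 2 Col-0 lists alone. Median GC was 44.1% in those with 7 lists and 37.8% in those with 2, and the share of coding bases was 66.8%, against 26.8%. The share with Myc-ROS1 peaks in both Myc-ROS1 lists was 27.9%, against 6.90%. GC also followed H2A.Z fold enrichment, the ratio of ChIP to local background at a peak's summit, whereas H3K4me3 fold did not. These folds are values that chose the segments and are given as a description. The median H3K4me3 fold in SET1 replicate 1 was 3.93 in segments with 2 lists, 4.84 with 6 and 4.55 with 7. Marked segments were also split into 4 equal groups by the lower of the 2 Col-0 H2A.Z folds. The top group (3.06 to 6.68) had a median GC of 44.8% and a median SET1 H3K4me3 fold of 4.05. In the bottom group (1.43 to 2.17) these medians were 41.1% and 4.65.

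The genes with the highest H2A.Z folds had modest H3K4me3. AT5G07760 had H2A.Z folds of 6.68 and 7.52 in Col-0 and H3K4me3 folds of 2.08 and 2.19 in SET1. Its H3K4me3 was not called in many other lists, with no peak in any list of rdr6, rdd, fwa or fwa x rdr6. It also had none in SDG2-ZF replicates 1 and 2, while SDG2-ZF replicate 3 had 2.13 and Col-0 of SET11 had 1.80 and 1.67. TSPO had H2A.Z folds of 6.14 and 6.24 with H3K4me3 at 3.04 and 2.79. NRT2.5 had 5.96 and 6.73 for H2A.Z with 3.39 and 3.63 for H3K4me3. All of these segments lay under H2A.Z from end to end. The cell-surface protein genes AGP1 (5.93 and 7.68) and AGP5 (5.88 and 7.44), the tetratricopeptide repeat gene AT4G39470 (6.13 and 5.72), the Fanconi anaemia-type gene AT5G49110 (5.52 and 6.15) and AT3G06890 (5.44 and 5.67) completed the first 8 by the lower Col-0 H2A.Z fold. Of these 8, AT4G39470 alone had SET1 H3K4me3 folds above 5, at 6.71 and 5.41. The H2A.Z folds of all 8 stayed at or above 2.88 in each of the 3 SDG2-ZF lists, and AGP1 had 6.32, 6.15 and 5.42 there.

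H3K4me3 was called more often at segments with H2A.Z than without in the 6 lists of SET11. In the other 21 lists the mean difference before any matching was near 0. Over the 27 H3K4me3 lists that the rule did not use, the share of marked segments with a peak ran from 55.9% to 99.3% with a median of 97.6%, and the share without H2A.Z from 33.5% to 99.3% with a median of 97.4%. The difference averaged 2.42 ± 6.06 points (SD, n = 27) and was above 0 in 17 lists (sign permutation test, p = 0.043, adjusted 0.104). Over the same 27 lists it was 5.37 points within GC groups (permutation p = 1e-05, the smallest that 100000 resamples can give) and 5.94 points with equal numbers of peaks (permutation p = 0.0107). Within SET11, which holds Col-0 and SDG2(H1866K)cd, it was 11.8 ± 6.84 points and above 0 in 6 of 6 (exact p = 0.03125, the smallest possible). Outside SET11 it was -0.26 ± 1.46 points (permutation p = 0.584, n = 21). The split by set was made after the values were seen, and matching on GC was not repeated within it. SET11 lists had low folds, with medians of 1.67 to 2.33 at marked segments, against a median of 5.52 over all 27 lists.

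Where H3K4me3 peaks were present, their rank within a list depended on which segments were set against each other. The median H3K4me3 peak at marked segments stood 4.09 percentile points higher among all peaks of its list than the median peak without H2A.Z, in 24 of 27 lists (SD 6.72, permutation p = 0.00442, adjusted 0.00884 over 4 measures, of which the 3 other than the H2A.Z summit were added after the data were seen). Within GC groups the difference was -6.89 points (permutation p = 1e-05, the smallest that 100000 resamples can give), and with members at least 50% covered by H2A.Z it was -3.57 points (permutation p = 0.0438). Single genes with high folds in SET11 were AT3G63540, for a thylakoid lumen protein, at 3.09 and 3.69, and AGO2, an antiviral Argonaute, at 3.14 and 2.96. AT3G63540 had only 36.2% of its segment under H2A.Z, and AGO2 had 72.0%.

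**Figure D2:**
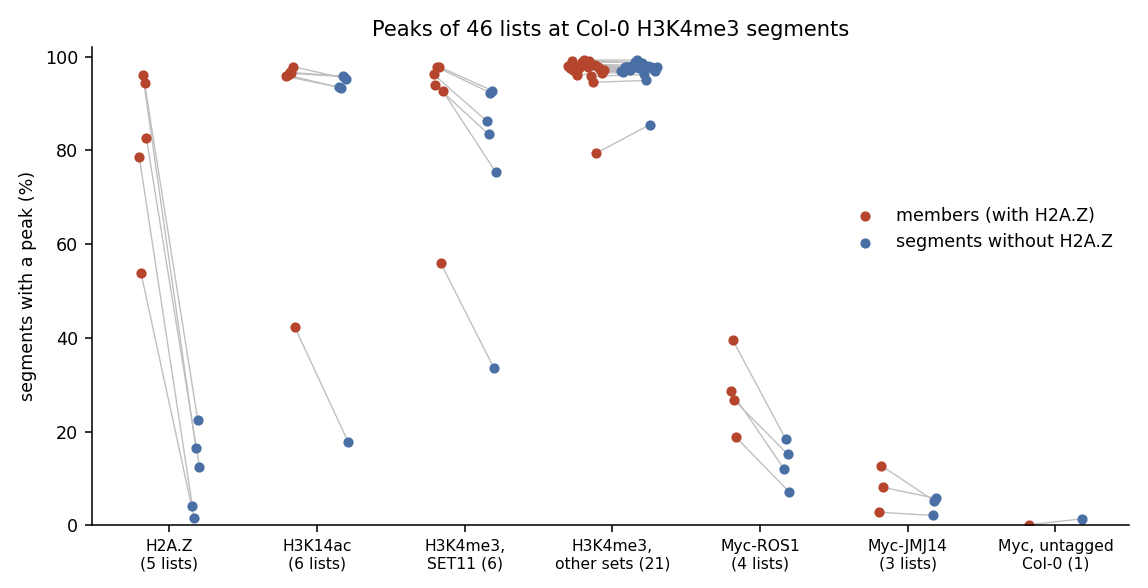
Percent of segments with a peak in each of the 46 lists that did not choose the segments, by assay, with marked segments (red, members) left of segments without H2A.Z (blue) and a grey line joining the values of 1 list. The H2A.Z lists lie between 53.9 and 96.1% in red and between 1.52 and 22.5% in blue, and Myc-ROS1 is higher in red in 4 of 4 lists.

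H3K14ac was present at nearly all marked segments and stood higher there than at segments without H2A.Z. Peaks were called at 96.7% and 96.5% of marked segments in SDG2-ZF, 95.8% and 96.1% in Col-0, 97.9% in SDG2-ZF rdd and 42.2% in rdd, whose list was short. Without H2A.Z the shares were 95.8% and 95.7% in SDG2-ZF, 93.5% and 93.4% in Col-0, 95.3% in SDG2-ZF rdd and 17.8% in rdd. The mean difference of 5.59 ± 9.25 points (SD, n = 6) had the same sign in 6 of 6 lists (exact p = 0.03125, the smallest possible, adjusted 0.104) and was 1.83 points without the rdd list. It was 2.85 points within GC groups, and reached 26.01 points with equal numbers of peaks per list. By fold, the median H3K14ac peak at marked segments stood 16.2 ± 1.98 percentile points higher in its list, in 6 of 6 (exact p = 0.03125, adjusted 0.0417 over 4 measures), and 8.72 points within GC groups. In Col-0 the median folds were 3.67 and 3.99 at marked segments, against 2.98 and 3.23 without H2A.Z. Among marked segments alone, H3K14ac did not rise with H2A.Z fold. Its median fold was 3.83 in the lowest of the 4 groups by Col-0 H2A.Z fold and 3.64 in the highest.

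The marked start with the highest H3K14ac was that of AT5G45660, by the lower of both Col-0 folds. AT5G45660, annotated as an adenine phosphoribosyltransferase, had H3K14ac folds of 9.05 and 11.3 in Col-0. AT2G20330, for a WD40 repeat protein, had 8.90 and 10.1. MBD8, a methyl-CpG-binding domain protein, had 8.76 and 8.88, and GCR1, a candidate G-protein-coupled receptor, had 8.41 and 9.82. These 4 genes had H3K4me3 folds of 6.29 or more in both SET1 lists and H2A.Z folds between 1.96 and 4.36 in Col-0. AT3G63390 (8.61 and 9.42), whose H2A.Z folds of 1.52 and 6.66 in Col-0 were far apart, and the phosphohydrolase gene AT1G17330 (8.11 and 8.26) completed the first 6.

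Myc-ROS1 peaks were more frequent at marked segments than at segments without H2A.Z in each of the 4 lists. In the cross with SDG2-ZF, 39.6% and 18.8% of marked segments had a peak, and in Myc-ROS1 alone 28.7% and 26.7%. Without H2A.Z the shares were 18.4% and 7.10% in the cross and 12% and 15.2% in Myc-ROS1 alone. The difference was 15.2 ± 4.65 points (SD, n = 4; exact p = 0.125, the smallest that 4 lists allow, adjusted 0.156), and 13.8 points within GC groups. In untagged Col-0 the Myc antibody gave peaks at 0.118% of marked segments (95% Wilson interval 0.0643 to 0.218%, counting error only) and 1.35% without H2A.Z, from a list of 808 peaks. This is 1 list, of SET6. The Myc-ROS1 lists are of SET4 and SET7, whose own untagged Col-0 libraries had no list here. Myc-JMJ14 was sparser. It covered 12.8% and 8.07% of marked segments in the cross with TRBIP1-ZF and 2.77% in Myc-JMJ14 alone, against 5.19%, 5.74% and 2.1% without H2A.Z. The JMJ14 difference of 3.52 ± 3.59 points (SD, n = 3; exact p = 0.25, the smallest possible) was -1.86 points within GC groups, so its sign was not stable.

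Peaks in both Myc-ROS1 lists lay at 1535 marked segments, 18.2%, against 202 without H2A.Z, 6.52%, and 15.5% of all 14566 segments. The share differed with position. At gene starts 10.4% had Myc-ROS1 in both lists, against 3.26% without H2A.Z, and further inside genes 36.2%, against 15.3%. Starts of single-exon genes had 20.5%, against 8.33%, and starts of genes with several exons 8.65%, against 2.99%. In the highest GC group, 38.9% of marked segments carried Myc-ROS1, and in the lowest 14%. Without H2A.Z the highest group had 8.33% (5 of 60 segments) and the lowest 7.02%, so the marked class was the higher of the pair in all 10 groups. Marked segments with Myc-ROS1 in both lists were longer than those in neither, at a median of 797 bp against 635 bp, had more coding bases, at 68.0% against 52.4%, and were less often at a start, at 38.8% against 79.2%. The part of segment length in these differences was not tested.

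**Figure D3:**
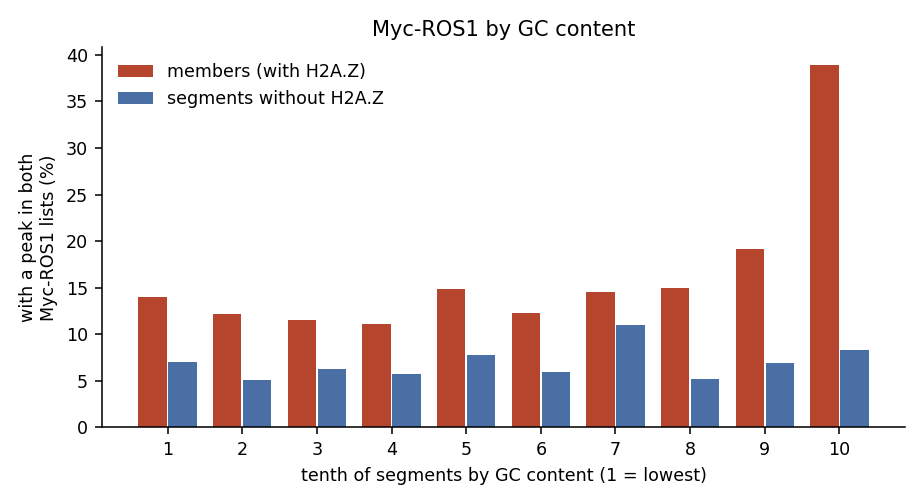
Percent of segments with a peak in both Myc-ROS1 lists, by GC group (1 the lowest), for marked segments (red, members) and segments without H2A.Z (blue). Marked segments stay between 11.1 and 19.1% in groups 1 to 9 and reach 38.9% in group 10, and the blue bars range from 5.08 to 11%.

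The 6 marked starts with the highest Myc-ROS1 folds, by the lower value in Myc-ROS1 alone, had a peak in both of those lists by their choice. TMM had Myc-ROS1 folds of 1.76 and 3.91 in the cross with SDG2-ZF and 5.25 and 4.82 in Myc-ROS1 alone. Its segment had a GC content of 59.9% and H2A.Z folds of 3.99 and 7.4. PEI1, a zinc finger protein known from embryo development, had 6.81 and 5.04 in the cross and 4.07 and 5.45 alone, with a GC content of 58.7%. AT5G10310, an epidermal patterning factor-like peptide of the family that acts on stomata, had 4.36 and 3.03 in the cross and 4.09 and 4.00 alone. The F-box gene AT5G56380 had the highest lower value, with 4.92 and 5.69 in Myc-ROS1 alone. AT1G56090 had 4.52 and 4.41, and the glycine-rich protein gene AT1G07135 had 4.00 and 4.75. High GC was not shared by all 6, since AT5G56380, AT1G56090 and AT5G10310 had between 38.0 and 39.0%.

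By summit, the distance of H2A.Z from gene starts did not differ detectably from that of H3K4me3, and Myc-ROS1 lay nearer to the start. Summit positions were taken at marked segments holding at most 1 start, in the direction of transcription, and each list gave its median. The H2A.Z medians were 303, 292 and 313.5 bp in SDG2-ZF replicates 1, 2 and 3, 303 bp in SDG2-ZF rdd and 313 bp in rdd, a mean of 304.9 ± 8.85 bp (SD, n = 5), against 306.1 ± 6.96 bp for H3K4me3 (n = 27; difference -1.25 bp, exact p = 0.717). With the middle of each peak in place of its summit, H2A.Z lay 23.9 bp nearer to the start (difference -23.9 bp, exact permutation p = 0.00227). At single segments the Col-0 H2A.Z summit lay a median of 55 to 58 bp from the SET11 H3K4me3 summit, a description only, since the rule asked these H2A.Z lists to overlap H3K4me3 segments and so set part of the closeness. H3K14ac medians were 293.5 to 299 bp in 6 lists. Myc-ROS1 medians were 125 and 160.5 bp in the cross and 160 and 120 bp in Myc-ROS1 alone, a mean of 141.4 ± 21.9 bp (n = 4). The difference from H3K4me3 was -165 bp, with no overlap between the 4 and the 27 lists (exact permutation p = 3.18e-05, the smallest possible, adjusted 0.000127). This was not particular to marked segments. At starts without H2A.Z the Myc-ROS1 medians were 62 and 57 bp in the cross and 104 and 62 bp in Myc-ROS1 alone. The H3K4me3 medians there were 292 to 332 bp in the 27 lists. At marked segments the offset also held segment by segment. In all 16 pairings of a Myc-ROS1 list with a Col-0 H2A.Z or SET11 H3K4me3 list, the median offset of the Myc-ROS1 summit was between -205 and -147 bp, and it lay on the upstream side of the other summit at 75.9 to 85.8% of segments.

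**Figure D4:**
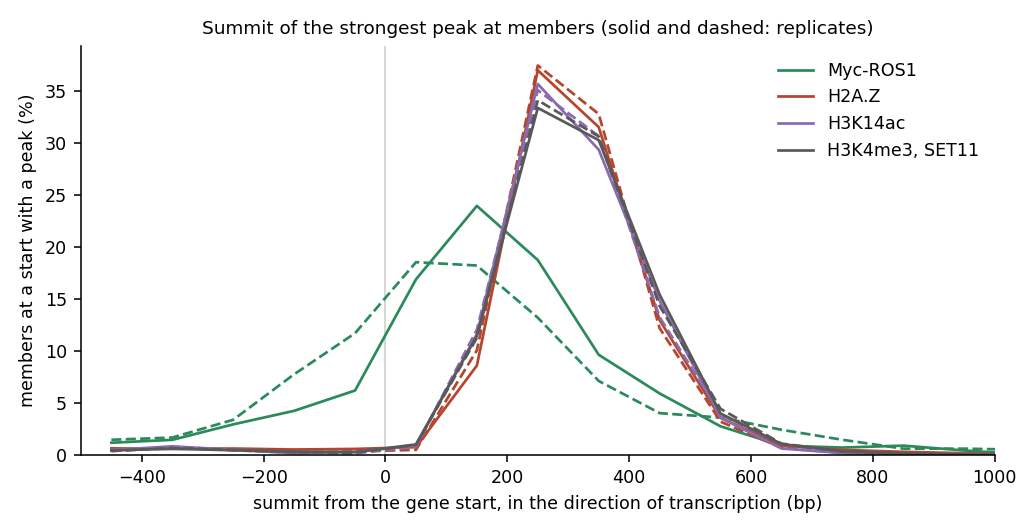
Distribution of summits around the gene start at marked segments (members), as the percent of segments per 100 bp against distance in bp in the direction of transcription, with replicates as solid and dashed lines. H2A.Z, H3K14ac and H3K4me3 share 1 maximum between 200 and 300 bp, and Myc-ROS1 (green) peaks below 200 bp and reaches upstream of the start.

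Whether targeted H3K4 methylation altered the marked segments genome-wide was asked by setting each transgenic group against its reference. In 7 comparisons of the share of marked segments with a peak, none passed p = 0.05 and none could, since the exact test of 2 lists against 2 cannot go below 0.333 and that of 4 against 2 has only 15 divisions. H3K14ac covered 96.7% and 96.5% of marked segments in SDG2-ZF, against 95.8% and 96.1% in Col-0, a difference of 0.639 points (exact p = 0.333, adjusted 0.778). The SDG2-ZF values were both above the Col-0 values, and the difference at marked segments was 0.16 points with equal numbers of peaks and 2.23 points at a −log10 q of at least 5. At segments without H2A.Z it was 2.37 points. H3K4me3 covered 95.8% and 98.3% in SDG2-ZF rdd, against 94.6% and 79.4% in rdd, a difference of 10.1 points (exact p = 0.333). It was 1.24 points within SET6 and 18.9 points within SET7, which holds the short rdd list, 2.51 points without that list and 1.85 points with equal numbers of peaks (exact p = 0.667). At segments without H2A.Z the difference was 6.97 points. Myc-ROS1 covered 39.6% and 18.8% in the cross with SDG2-ZF, against 28.7% and 26.7% in Myc-ROS1 alone (exact p = 1), and the difference had opposite signs within SET4 (10.9 points) and SET7 (-7.90 points).

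The other H3K4me3 groups were close to their references at marked segments. Every reference list here already had peaks at 93.9% or more of them, so a gain could hardly show in this measure. SunTag-SDG2 in rdr6 covered 98.9% and 99.3%, against 97.8% and 99.2% in rdr6 (exact p = 0.667), and the line with no guide 98.4%. TRBIP1-ZF covered 97.9% and 96.5%, against 97.5% and 97.1% in fwa (exact p = 1). TRBIP1-dCAS9-MQ1v covered 97.1% and 97.3%, against 97.7% and 97.9% in fwa x rdr6 (exact p = 0.333), and dCAS9-MQ1v 96.1%. SDG2(H1866K)cd covered 97.7%, 97.9%, 55.9% and 92.8%, against 96.2% and 93.9% in Col-0 of SET11 (difference -8.97 points, exact p = 0.867). The low value belongs to the short list of replicate 3, and without it the difference was 1.07 points. Adjusted p-values over the 7 comparisons were 0.778 or 1.

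Few marked segments gained or lost an H3K14ac or Myc-ROS1 peak in both lists of a group. H3K14ac appeared in both SDG2-ZF lists and neither Col-0 list at 39 marked segments, 0.462%, against 1.06% of segments without H2A.Z and a background of 0.831% over all 14566 segments, and went missing at 30, 0.355%, against 0.281%. The 39 became 98 at a −log10 q of at least 5 and 83 with 50% of the segment under peaks. CYP71B36, a cytochrome P450, led the 39 with H3K14ac folds of 4.2 and 2.41 in SDG2-ZF and no Col-0 peak. UTR1, a nucleotide sugar transporter, had 2.13 and 2.52, FAS1, a subunit of the chromatin assembly factor CAF-1, 1.98 and 2.03, and the pentatricopeptide repeat gene AT2G03380 1.98 and 2.42. Among the 30 without H3K14ac peaks in SDG2-ZF, the auxin repressor gene IAA7 had 2.2 and 2.72 in Col-0, and PSD2, a phosphatidylserine decarboxylase, 2.77 and 2.60.

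Myc-ROS1 appeared in both lists of the cross with SDG2-ZF and in neither list of Myc-ROS1 alone at 49 marked segments, 0.58%, against 0.57% of all segments, and the reverse held at 48, 0.568%, against 0.604%. PUB22, a ubiquitin ligase of immune signalling, had Myc-ROS1 folds of 4.86 and 3.06 in the cross, and GRX480, a glutaredoxin of salicylic acid signalling, 2.64 and 2.59. ECA4, a calcium ATPase, had 2.40 and 3.76 in Myc-ROS1 alone and no peak in the cross. The marked share was therefore next to the background in both directions.

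For the marks that chose the segments, SDG2-ZF can only be described, because Col-0 stands at 100% by the rule. H3K4me3 peaks covered 97.9%, 97.6% and 99.0% of marked segments in the 3 SDG2-ZF lists. At 67 marked segments, 0.793%, no SDG2-ZF list had an H3K4me3 peak (1.02% of all segments). H2A.Z was absent from all 3 SDG2-ZF lists at 204 marked segments, 2.42%. Over all 14566 segments 207 had this call, 1.42%, nearly all of them marked. The call needs peaks in both Col-0 H2A.Z lists, as the rule does, so the share over all segments is no background here. Among them UGP1, an enzyme of UDP-glucose synthesis, had H2A.Z folds of 3.16 and 2.80 in Col-0, AT3G13580, a ribosomal L30/L7-type protein, 2.98 and 2.92, and AK-HSDH II, an enzyme of threonine and methionine synthesis, 2.66 and 3.03. AK-HSDH II had H2A.Z folds of 2.24 in SDG2-ZF rdd and 3.51 in rdd, so peaks returned there, while AT3G13580 had none in either. The demethylase gene DML2 was in the same state, with H2A.Z folds of 2.06 and 1.97 in Col-0 and no peak in any other H2A.Z list.

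Marked segments covered the first 500 bp of 8111 of 27444 coding genes (29.6%), and segments without H2A.Z those of 2854 (10.4%). Annotated gene families differed widely around these backgrounds. Of 279 pentatricopeptide repeat genes, which encode RNA-binding proteins of organelles and mostly lack introns, 185 (66.3%) began with a marked segment and 16 (5.73%) with one lacking H2A.Z. Of 51 histone genes 26 (51.0%) were marked and 0 lacked H2A.Z, and of 78 SAUR genes, small auxin-induced genes, 16 (20.5%) were marked and 0 lacked it. Cytochrome P450 genes had 52 (21%) and 4 (1.61%) of 248. Most P450 and SAUR genes had no H3K4me3 segment at their start, and 46% of the P450 genes had H2A.Z there without H3K4me3. Ribosomal protein genes went the other way, with 115 (33.4%) marked and 125 (36.3%) without H2A.Z of 344. Genes for splicing factors and RNA-binding proteins had 61 (32.1%) and 48 (25.3%) of 190. Protein kinase genes, at 30.5% and 11.7% of 1388, were near the background. Families were drawn from annotation after the data were seen, and near-identical copies of histone and ribosomal genes may share reads.

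**Figure D5:**
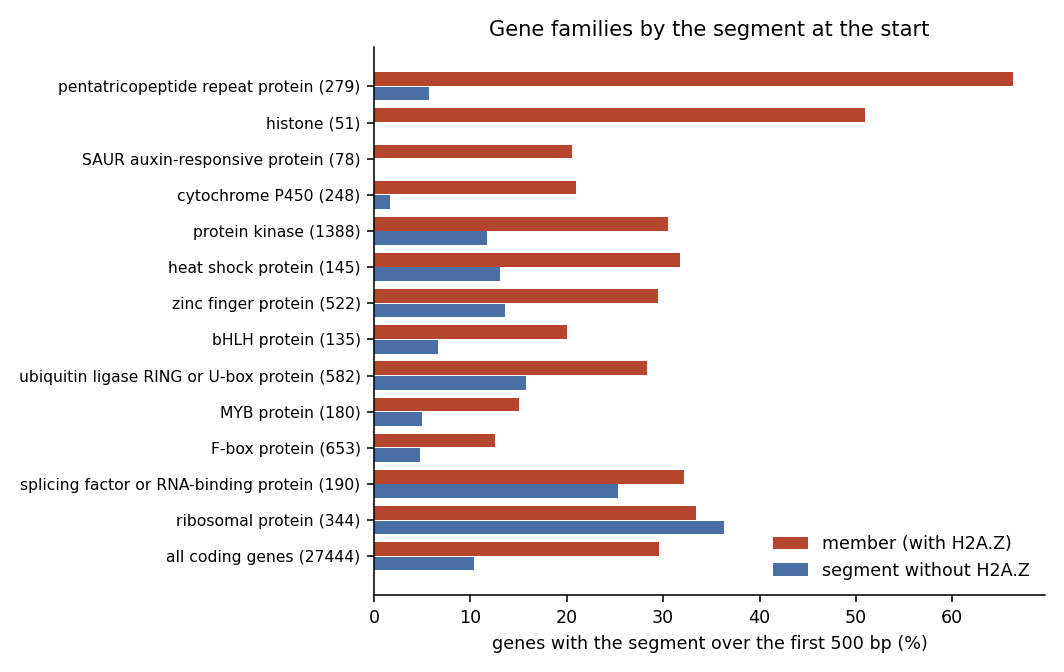
Percent of genes of each annotated family (number of genes in brackets) whose first 500 bp met a marked segment (red, members) or a segment without H2A.Z (blue). Pentatricopeptide repeat genes have the widest gap, at 66.3% and 5.73%, and ribosomal protein genes are the one family with the blue bar longer, at 33.4% and 36.3%.

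The machinery of these marks was itself partly under marked segments. Of 10 genes for H2A.Z and its deposition, 5 began with one (50%), against 29.6% of all coding genes. The gene lists are short, and their shares were not tested. The 5 were ARP6, SWC2 and SWC6 of the SWR1 complex, the H2A.Z gene HTA9 and MBD9, which binds the complex. The SWR1 ATPase gene PIE1 was in between, the remodeller gene INO80 had H3K4me3 without H2A.Z, and SWC4 and the H2A.Z genes HTA8 and HTA11 had H2A.Z without H3K4me3. MBD9 had H3K4me3 folds of 7.63 and 9.15 in SET1 and H2A.Z folds of 3.76 and 3.69, the highest H3K4me3 of the 5. HTA9 had H2A.Z folds of 1.93 and 4.61 in Col-0, a wide spread between replicates. In SDG2-ZF lists HTA9, SWC2 and SWC6 had an H2A.Z peak in replicate 2 alone.

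Of 18 genes for writers and erasers of H3K4 methylation, 8 (44.4%) began with a marked segment and 5 (27.8%) with one lacking H2A.Z. Over all coding genes these shares were 29.6% and 10.4%. The marked writers were SDG2, ATX1, ATX3, ATX4, ATX5 and the complex subunit WDR5a, and the marked erasers were LDL1 and LDL2. None of the few jumonji demethylase genes listed was marked, as JMJ16 and JMJ18 lacked H2A.Z, JMJ14 and JMJ17 were in between and JMJ15 had no H3K4me3 segment. SDG2 had H2A.Z folds of 1.9 and 2.95 in Col-0, and ATX1 3.6 and 5.28 over its whole segment.

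Of 14 genes of DNA methylation and demethylation, 5 (35.7%) were marked, near the 29.6% of all coding genes. They were the methyltransferase genes CMT2 and DRM2, the histone H3K9 methyltransferase gene KYP, the acetyltransferase gene IDM1 of the active demethylation pathway and DML2. CMT2 had H2A.Z folds of 4.24 and 4.28 and KYP 4.60 and 3.32. DME lacked H2A.Z under its H3K4me3, and ROS1 and DML3 had no H3K4me3 segment at their start. MET1, CMT3, DDM1, VIM1, IDM2 and IDM3 had H2A.Z without H3K4me3.

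Among genes that respond to the environment, 6 of 12 heat genes (50%) began with a marked segment and 0 with one lacking H2A.Z, namely HSP101, HSP90.1, HSP70-4, HSFB1, MBF1C and ROF1. The annotated heat shock protein family as a whole was near the backgrounds given above, with 46 of 145 genes (31.7%) marked and 19 (13.1%) without H2A.Z. HSP70-4, a heat-induced chaperone, had H2A.Z folds of 4.04 and 4.12 with SET1 H3K4me3 at 2.24 and 2.56. Another 5, including the small heat shock protein genes HSP17.4 and AT5G59720 and the regulator HSFA2, had H2A.Z and no H3K4me3 segment. Other response lists were nearer to the background. Light signalling genes had 3 of 10 marked (30%) and 3 without H2A.Z. Salicylic acid defence genes had 4 of 13 (30.8%) and 2, and auxin response genes 4 of 12 (33.3%) and 0. Circadian clock genes were divided, with 6 of 15 marked (LHY, LUX, ELF4, FKF1, RVE8, CHE) and 5 without H2A.Z (TOC1, PRR7, ELF3, GI, ZTL). Of 18 flowering-time genes 5 were marked (CO, FD, FRI, FVE, FCA), FLC had H2A.Z without H3K4me3, and FWA, the gene targeted in the study, had no H3K4me3 segment in Col-0. Photosynthesis genes had 3 of 19 marked (15.8%) and 12 in between, and housekeeping genes 2 of 12 (16.7%), both below the 29.6% of all coding genes. Another 5 housekeeping genes (41.7%) and 2 photosynthesis genes (10.5%) began with an H3K4me3 segment above the upper length limit, against 2.70% of all coding genes. Such segments could not count as marked, whatever their H2A.Z. How far length set these low shares was not tested.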

How the data were processed

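Per the labels, ChIP was made from leaf tissue, reads were trimmed with Trim Galore 0.6.5 and aligned to TAIR10 with Bowtie2 2.1.0, SAMtools 1.9 and deepTools 3.1.3 were used, and peaks were called in each library with MACS2 2.2.1. The authors deposited 1 peak list per library, with a fold enrichment (a ratio over background) and −log10 p and q values. Calling limits differed: 27 lists hold peaks with a −log10 q below 2 and 23 do not. Replicates were not pooled. Organelle peaks (1490 lines) were left out.

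Peaks were merged and intersected, and a segment had a peak if at least 1 bp overlapped. Shares were compared across libraries by exact sign or label permutation, two-sided, with 100000 resamples where enumeration was too long, in Python 3.11.15 with numpy 2.4.6 and scipy 1.17.1. Scripts were tested on simulated data. The segments and gene lists were chosen with earlier results of these data known. Named members were the highest folds per mark, the highest among gained or lost peaks, and listed genes, of which 1 is not reported here. Genes came from the RefSeq annotation of TAIR10.1. Alternatives were a −log10 q of at least 5, equal peak numbers, 50% overlap, other length and position limits, matching on GC, width or H3K4me3, and leaving out each library. Same-numbered libraries share a set in the labels, which pairs them.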

Additional observations from a re-analysis of the deposited data

Results flagged for a closer look

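H3K4me3 replicate 3 of SDG2(H1866K)cd stood far from the other 3 of its group, with a peak at 55.9% of H2A.Z-marked segments, against 92.8%, 97.7% and 97.9%. Its gap to the nearest library, as a share of the group's range, was 0.878, above Dixon's 95% limit for 4 samples, which chance passes in about 1 group in 20. The list held 9647 peaks, the fewest of the H3K4me3 lists, and its median fold at marked segments was 1.67. Whether the plant, the immunoprecipitation or the depth set this library apart was not tested.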

How the results depend on the processing

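The lists hold no read numbers, calling limits differ between lists, and members are not replicates, so only library counts carry tests. Myc-ROS1 and H2A.Z at marked segments, H3K14ac in SDG2-ZF, H3K4me3 in SDG2-ZF rdd and in TRBIP1-dCAS9-MQ1v, and the Myc-ROS1 summit kept their direction under every alternative run, and the Myc-ROS1 summit offset stayed between -171 and -158 bp (exact permutation p = 0.000246, the smallest possible) when each Myc-ROS1 list was left out. The H3K14ac difference was 4.65 points with members at least 50% under H2A.Z (exact p = 0.125) 26.01 with equal numbers of peaks, 2.85 within GC groups and 1.83 to 6.57 points with each list left out, the lowest without rdd. The H3K14ac rank difference was 15.5 to 16.6 points with each list left out. Dropping a list leaves 5, for which an exact p cannot go below 0.0625.

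The H3K4me3 difference over 27 lists was 3.05 points at a −log10 q of at least 5, 2.90 with 50% of the segment under peaks, 1.29 with members at least 50% under H2A.Z, 2.06 for segments of at least 300 bp, 1.60 at starts, 5.37 within GC groups (permutation p = 1e-05), 5.94 with equal numbers of peaks, 2.64 within bins of width, 1.65 to 2.74 with each list left out, the lowest without SDG2(H1866K)cd replicate 3, and -0.26 outside SET11, a set that was singled out after seeing the data. Its rank difference was -3.57 with members at least 50% under H2A.Z, -6.89 within GC groups and 0.60 within groups of H3K4me3 fold (permutation p = 0.619). Matching on GC was also added after seeing the data, and turned Myc-JMJ14 to -1.86 points. The H2A.Z summit difference was -23.9 bp with the middle of each peak in place of its summit (exact permutation p = 0.00227) and -3.40 to 1.98 bp with each list left out. The cause of these changes was not tested.

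With each list left out, Myc-ROS1 x SDG2-ZF against Myc-ROS1 ranged from -8.92 points (without the first list of the cross) to 11.9, SunTag-SDG2 from -0.095 to 1.22, SDG2(H1866K)cd from -12.9 to 1.07 and TRBIP1-ZF from -0.83 to 0.59. SunTag-SDG2 was -0.38 points at a −log10 q of at least 5 and -1.08 with equal numbers of peaks. With the set and replicate number as a replicate block, SDG2(H1866K)cd was 2.76 points over its 2 numbered pairs, and the block changed no other value. H3K14ac gains at members numbered 98 at a −log10 q of at least 5 and 83 at 50% overlap. Myc-ROS1 gains numbered 82 with equal numbers of peaks, and losses 17 at 50% overlap. GC and coding shares differed by 5.14 and 29.0 points with members at least 50% under H2A.Z, and coding shares by 23.3 points at starts.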
